A study of Mus musculus with 6 samples.

Results

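The genes of DNA replication and of the nucleotide supply for DNA synthesis were compared between livers of control mice (Ctrl, 3 samples) and of mice lacking Fam210a in hepatocytes only, a cell-type-specific knockout (Fam210aHKO, 3 samples), all aged 5 weeks. The set is a list of 50 mouse genes, matched by symbol to a table of 54532 annotated genes. All 50 were found, and 45 of them were among the 13706 genes with enough counts to be tested. FAM210A sits in the inner membrane of mitochondria, and the study asked how its loss from hepatocytes, the main parenchymal cells of the liver, changes the juvenile organ. Poly-A RNA of whole liver tissue was sequenced, so the RNA of liver cells other than hepatocytes is included. The sources used here do not give the strain, the floxed allele or the Cre driver. The titles name Fam210aHKO for all 3 knockout samples, whereas the genotype entry of replicates 2 and 3 carries the neighbouring gene numbers 211 and 212. Groups follow the titles. Whether each sample is 1 animal is not in the labels. The p-values therefore cover the spread between the samples at hand, and that spread may be technical in part.

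Before a cell copies its genome, the origin recognition complex, CDC6 and CDT1 load the ring-shaped MCM2-7 helicase onto DNA, a step called licensing. In S phase the kinase CDC7 with its activator DBF4, together with CDC45, the GINS complex and MCM10, turns the loaded ring into an active helicase. DNA polymerases alpha, delta and epsilon then copy the strands, with PCNA as the sliding clamp, while ribonucleotide reductase and thymidylate enzymes supply the building blocks. Hepatocytes of the adult liver are mostly quiescent, and hepatocytes of the growing juvenile liver still divide and become polyploid. Many genes of this machinery are known targets of E2F transcription factors.

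Library totals ranged from 12.5 to 19.7 M counts (1 M is 1e6), and replicates differed by more than counting error, with a biological coefficient of variation of 0.196. Values per library are given as counts per 1e6 (CPM, scaled between libraries by TMM), always in the order of replicates 1 to 3, and log2 fold changes are given ± SE with the adjusted p of edgeR. Fam210a itself fell from 119, 136 and 162 CPM in Ctrl to 31.7, 28.6 and 44.2 CPM in Fam210aHKO (log2 fold change -1.99 ± 0.19, adjusted p = 4.42e-05). The counts cover the whole gene, so a part outside the deleted exons can still be read. The TMM scaling factors had means of 0.855 (Ctrl) and 1.17 (Fam210aHKO). Scaling by library totals instead moved the median over all tested genes from 0.02 to 0.47 on the log2 scale, and each log2 fold change below is to be read against that shift.

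Of the 45 tested genes, 17 rose in Fam210aHKO (37.8%) and 2 fell (4.44%), at an adjusted p under 0.05. Over all tested genes the shares were 14.0% higher and 13.5% lower. The median log2 fold change of the 45 genes was 0.44, with quartiles of -0.01 and 1.01 and extremes of -2.06 (Mcm10) and 2.35 (Gins2). Genes that rose included 4 subunits of the MCM2-7 helicase, both subunits of the chromatin assembly factor read here, DNA ligase 1 (Lig1), the GINS subunit Gins2 and the kinase activator Dbf4. Mcm10 and thymidine kinase 1 (Tk1) fell. In 23 of the 45 genes all 3 Fam210aHKO values lay above all 3 Ctrl values, against 22.0% of all tested genes, and in 4 they lay below, against 20.7%. In these bulk samples, fewer cells of a type and less RNA per cell cannot be told apart.

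The scaling and a single library moved these counts. With library totals in place of TMM, 33 of the 45 genes were called higher and 2 lower, with a median of 0.90. On that scale 42.7% of all tested genes were called higher and 6.33% lower, a split of 5846 to 868 in place of 1922 to 1852. Without Fam210aHKO replicate 2 the number higher was 11. Of the 19 called genes, 12 (Chaf1a, Dbf4, Gins2, Lig1, Mcm10, Mcm2, Mcm5, Mcm6, Mcm7, Pold1, Prim2 and Tk1) kept their call in each of the 16 alternatives read at an adjusted p of 0.05. With the replicate number as a block the number higher was 20, and the genes added were Mcm3 (adjusted p = 0.046), Orc2 (0.038) and Tyms (0.043). The plot of values by library shows the 45 tested genes in the order used below.

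**Figure D1:**
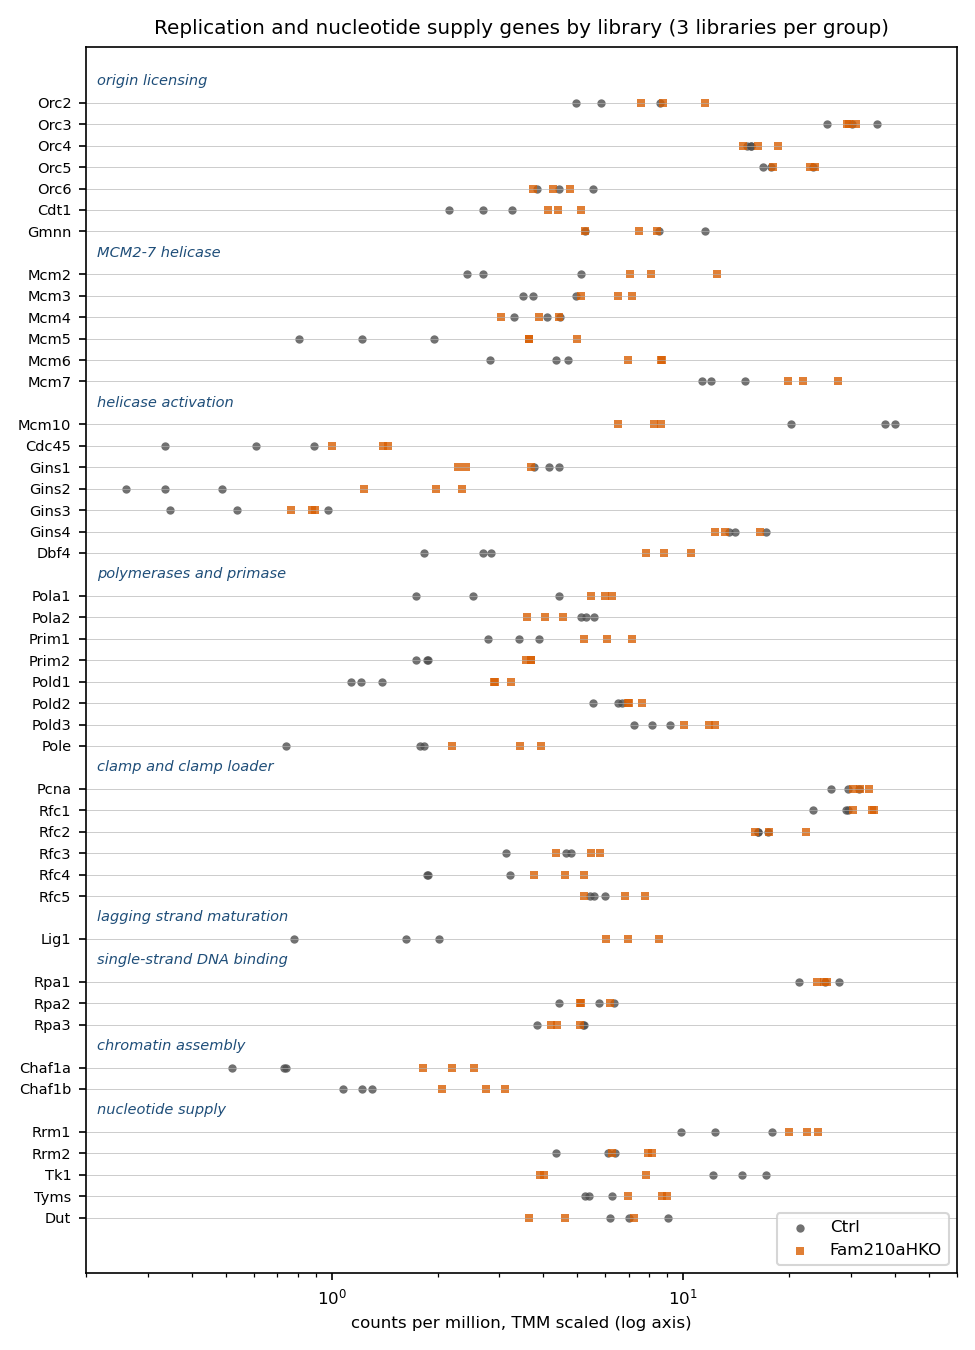
Counts per 1e6 (TMM scaled, log axis) of the 45 tested genes in each of the 3 Ctrl libraries (grey circles) and 3 Fam210aHKO libraries (orange squares), grouped by role. In Mcm10 and Tk1 the orange squares lie left of all grey circles, and in Lig1, Dbf4 and Gins2 they lie right of them.

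The sequence upstream of the start site is shown for genes that moved in each direction and for a gene that did not pass the test, because the rule for showing promoters takes the genes with the largest and smallest changes. By that rule Lig1 and Rpa2 are shown. The RefSeq promoter table used here has no entry for Gins2, and the Rpa1 window lies in annotated exons. Mcm5, Mcm6, Mcm10 and Tk1 were added after their values were seen, as helicase genes that rose and the genes that fell. Each stretch is the part of the 250 bases before a RefSeq start that lies in no annotated exon. It is read 5′ to 3′ on the gene's strand in build GRCm38.p6, with matches to the E2F site in capitals. The positions are chr8:75109259-75109508 (plus strand) for Mcm5, chr1:128359706-128359955 (minus) for Mcm6, chr7:13278722-13278825 (plus) for Lig1, chr2:5012792-5013041 (minus) for Mcm10, chr11:117826093-117826264 (minus) for Tk1 and chr4:132768110-132768331 (plus) for Rpa2.
Mcm5: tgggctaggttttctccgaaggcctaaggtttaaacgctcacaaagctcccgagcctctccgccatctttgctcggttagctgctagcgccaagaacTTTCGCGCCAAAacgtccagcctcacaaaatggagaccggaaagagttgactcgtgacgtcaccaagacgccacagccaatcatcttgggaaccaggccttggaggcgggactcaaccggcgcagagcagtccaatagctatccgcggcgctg
Mcm6: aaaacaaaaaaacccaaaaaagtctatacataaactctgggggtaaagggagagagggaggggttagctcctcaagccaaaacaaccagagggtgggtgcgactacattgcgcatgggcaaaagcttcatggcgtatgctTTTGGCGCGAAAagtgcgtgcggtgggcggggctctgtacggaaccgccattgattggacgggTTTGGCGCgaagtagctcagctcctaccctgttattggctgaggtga
Lig1: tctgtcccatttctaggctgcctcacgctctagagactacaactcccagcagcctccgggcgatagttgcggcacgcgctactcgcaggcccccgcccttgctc
Mcm10: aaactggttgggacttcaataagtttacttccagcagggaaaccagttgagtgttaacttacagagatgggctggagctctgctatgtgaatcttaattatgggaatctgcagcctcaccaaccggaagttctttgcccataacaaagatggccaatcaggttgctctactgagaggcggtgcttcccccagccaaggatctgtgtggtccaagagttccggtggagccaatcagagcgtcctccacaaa
Tk1: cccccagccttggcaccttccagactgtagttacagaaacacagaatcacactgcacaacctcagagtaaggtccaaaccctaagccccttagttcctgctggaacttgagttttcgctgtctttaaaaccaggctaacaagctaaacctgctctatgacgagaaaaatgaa
Rpa2: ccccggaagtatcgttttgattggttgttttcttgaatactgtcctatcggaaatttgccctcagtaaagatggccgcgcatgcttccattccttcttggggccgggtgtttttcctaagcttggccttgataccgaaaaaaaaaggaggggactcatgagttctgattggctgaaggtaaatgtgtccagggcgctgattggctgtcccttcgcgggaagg

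The E2F site was searched on both strands as TTTCCCGC, TTTCGCGC, TTTGCCGC or TTTGGCGC, in windows from 250 bases before to 50 bases after the start. The stretch of Mcm5 holds 2 overlapping matches and that of Mcm6 holds 3, of which 2 overlap. Those printed for Mcm10, Tk1 and Rpa2 hold none. The Lig1 window has a match 26 bases after the start used here, in a part not printed. That start lies inside the annotated gene, which begins at chr7:13277283. Lig1 has further RefSeq starts, and their windows (chr7:13276925-13277224 and chr7:13279015-13279314) hold no match. Of the 50 genes, 42 have a RefSeq window, and 15 of these (35.7%) hold a match, against 2.60% of 27025 genes in the table. A match was found in 7 of 14 genes that rose, in 0 of 2 that fell, in 5 of 21 tested genes without a call and in 3 of 5 untested genes. With the looser cores of 6 letters the share was 81.0% of the 42 genes and 27.4% of all genes. The CCAAT box was found in 57.1% of the 42 genes and 41.1% of all genes. The cell cycle homology region, searched as TTTGAA or its variant with a central CG, was found in 21.4% and 21.7%. A match is a string of letters and not a measured binding site, and E2F binding was not measured in these samples.

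Among the licensing genes, 1 of 7 tested rose (14.3%, near the 14.0% of all tested genes) and none fell, and the median log2 fold change was 0.10. Cdt1, which brings the helicase ring to the origin, was 2.70, 3.25 and 2.15 CPM in Ctrl and 4.11, 4.40 and 5.13 CPM in Fam210aHKO. The groups did not overlap, and Cdt1 was called higher by 0.76 ± 0.25 on the log2 scale (adjusted p = 0.042). This call did not hold with DESeq2 (0.064) and on leaving out Ctrl replicate 1 (0.104), Ctrl replicate 3 (0.166) or Fam210aHKO replicate 1 (0.062), 2 (0.088) or 3 (0.102). Geminin (Gmnn), the protein that binds and inhibits CDT1, was 8.52, 11.5 and 5.24 CPM in Ctrl and 5.26, 8.39 and 7.46 CPM in Fam210aHKO. The Gmnn groups overlapped, and its log2 fold change of -0.26 ± 0.29 did not pass the test.

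None of the 5 tested genes of the origin recognition complex was called with TMM, and with library totals Orc2, Orc3, Orc4 and Orc5 were called higher (adjusted p = 0.00583, 0.0373, 0.0204 and 0.0152). Orc2 was 4.96, 8.61 and 5.85 CPM in Ctrl and 7.56, 11.5 and 8.77 CPM in Fam210aHKO, with a log2 fold change of 0.52 ± 0.25 (adjusted p = 0.154) that passed with the replicate block (0.038) and without Ctrl replicate 2 (0.0499). Of its exon bases 29.8% are shared with Nif3l1 on the opposite strand. Orc3, Orc4, Orc5 and Orc6, further subunits of the same complex, had log2 fold changes between -0.12 and 0.16 with TMM, with overlapping groups. Orc1, the largest subunit, had 1, 5 and 1 counts in Ctrl and 5, 1 and 4 counts in Fam210aHKO and was not tested. Cdc6, which helps to load the helicase ring, had 2, 1 and 6 counts in Ctrl and 4, 2 and 7 counts in Fam210aHKO and was not tested either. A library's 3 counts correspond to between 0.132 and 0.261 CPM, and the Orc1 and Cdc6 counts of both groups overlapped around that floor.

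The MCM2-7 helicase unwinds the template, and 4 of its 6 subunit genes rose (66.7%, against 14.0% of all tested genes). The median log2 fold change was 0.95. Mcm5 was 1.22, 1.95 and 0.807 CPM in Ctrl and 3.64, 3.65 and 5.00 CPM in Fam210aHKO, a log2 fold change of 1.64 ± 0.33 (adjusted p = 0.00417). Mcm2 was 2.70, 5.11 and 2.42 CPM in Ctrl and 7.03, 12.5 and 8.12 CPM in Fam210aHKO, a log2 fold change of 1.43 ± 0.32 (adjusted p = 0.00710). In both genes the lowest knockout library lay above the highest control library, which for Mcm2 and Mcm5 was Ctrl replicate 2. Mcm6 was 4.35, 4.71 and 2.82 CPM in Ctrl and 8.71, 6.95 and 8.64 CPM in Fam210aHKO, a log2 fold change of 1.04 ± 0.24 (adjusted p = 0.00826). Mcm7 was 12.0, 15.0 and 11.3 CPM in Ctrl and 27.6, 19.8 and 21.8 CPM in Fam210aHKO, a log2 fold change of 0.86 ± 0.19 (adjusted p = 0.00611). Mcm7 is also the host gene of the microRNAs Mir25 and Mir93, which have no counts of their own here.

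The remaining subunits, Mcm3 and Mcm4, were not called. Mcm3 was 3.74, 4.95 and 3.50 CPM in Ctrl and 5.12, 6.54 and 7.15 CPM in Fam210aHKO, without overlap, and its log2 fold change of 0.63 ± 0.24 had an adjusted p of 0.0707, of 0.046 with the replicate block and of 0.0496 without Ctrl replicate 2. Mcm4 was 3.30, 4.46 and 4.10 CPM in Ctrl and 3.87, 3.03 and 4.43 CPM in Fam210aHKO. Its groups overlapped throughout, and its log2 fold change was -0.06 ± 0.24 with TMM and 0.40 with library totals, neither of which passed the test.

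Levels of different genes were compared per kilobase of gene length, as the authors' FPKM. The sum of the 6 subunits was 9.21, 11.8 and 8.58 FPKM in Ctrl and 17.2, 15.7 and 17.5 FPKM in Fam210aHKO. Mcm7 had the highest level in each of the 6 libraries. The ratio of the highest to the lowest subunit level was 8.89, 6.95 and 12.6 in Ctrl and 6.85, 5.31 and 4.23 in Fam210aHKO. Mcm5 was the lowest subunit in all 3 Ctrl libraries and in Fam210aHKO replicate 1, whereas Mcm4 was lowest in Fam210aHKO replicate 2 and Mcm2 in replicate 3. The plot of subunit levels shows that Mcm4 kept its mean, at 1.61 ± 0.227 FPKM in Ctrl and 1.47 ± 0.287 FPKM in Fam210aHKO (SD, n = 3 each).

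**Figure D2:**
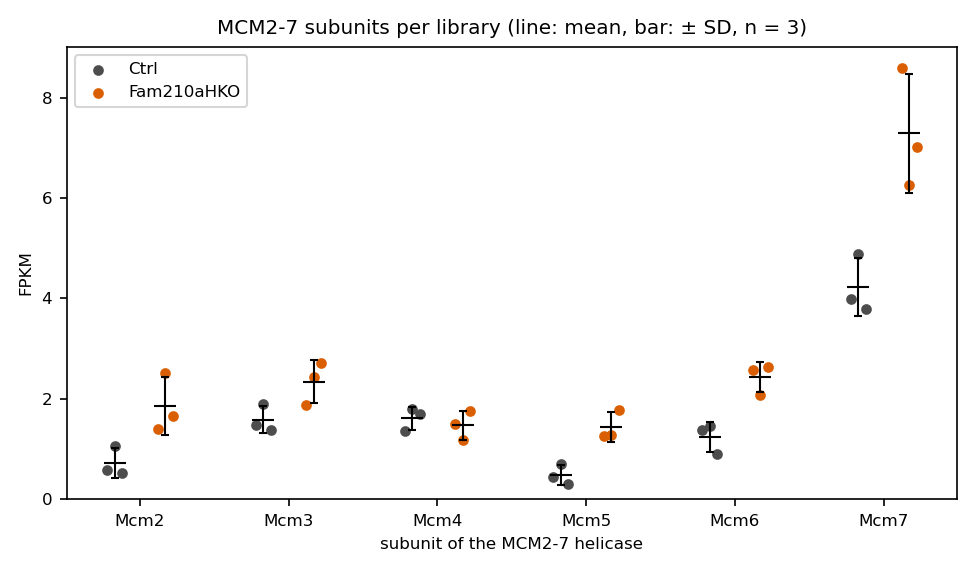
FPKM of each MCM2-7 subunit gene in the 3 Ctrl (grey) and 3 Fam210aHKO (orange) libraries, with the mean (line) and SD (bar). Mcm7 lies highest in every library, at 4.22 ± 0.578 FPKM in Ctrl and 7.29 ± 1.19 FPKM in Fam210aHKO, and the Mcm4 groups overlap.

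Among the helicase activation genes, 2 of 7 tested rose (28.6%, against 14.0% of all tested genes). There 1 fell (14.3%, near the 13.5% of all tested genes), and the median log2 fold change was 0.44. Mcm10, which helps to activate the assembled helicase and tethers polymerase alpha, was 37.5, 20.3 and 39.9 CPM in Ctrl and 8.66, 6.54 and 8.25 CPM in Fam210aHKO. The highest knockout value was less than the lowest control value, and the level fell to 24.1% of the control level (log2 fold change -2.06 ± 0.25, adjusted p = 0.000188). Mcm10 lies at chr2:4989714-5012791 on the minus strand and its exons overlap no other annotated gene. Dbf4, the activator of the CDC7 kinase, was 1.83, 2.84 and 2.69 CPM in Ctrl and 7.85, 8.81 and 10.5 CPM in Fam210aHKO, a rise of 3.67-fold (log2 fold change 1.88 ± 0.24, adjusted p = 0.000256). Its kinase partner Cdc7 had 0, 1 and 3 counts in Ctrl and 6, 2 and 7 counts in Fam210aHKO and was not tested.

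The GINS genes encode the 4 subunits of a single complex, and of these Gins2 was called. Gins2 was 0.261, 0.487 and 0.336 CPM in Ctrl and 2.34, 1.24 and 1.97 CPM in Fam210aHKO, from 3, 6 and 5 counts against 49, 18 and 45 counts. It rose 5.10-fold (log2 fold change 2.35 ± 0.43, adjusted p = 0.00225). Gins2 shares 67.3% of its exon bases with Gse1 on the opposite strand, and Gse1 averaged 8.91 CPM in Ctrl and 8.18 CPM in Fam210aHKO. Gins1 was 4.43, 4.14 and 3.76 CPM in Ctrl and 3.68, 2.41 and 2.28 CPM in Fam210aHKO, with a log2 fold change of -0.55 ± 0.26 that did not pass. Gins3 had overlapping groups and a log2 fold change of 0.44 ± 0.45, from at most 20 counts a library. Gins4 had overlapping groups and a log2 fold change of -0.09 ± 0.18 with TMM and 0.37 with library totals. Cdc45, the partner of GINS in the active helicase, was 0.609, 0.893 and 0.336 CPM in Ctrl and 1.0, 1.44 and 1.40 CPM in Fam210aHKO. The Cdc45 groups did not overlap, and its log2 fold change of 1.08 ± 0.43 had an adjusted p of 0.0839.

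Genes of the polymerases and primase rose in 5 of 8 tested cases (62.5%, against 14.0% of all tested genes). None fell, and the median log2 fold change was 0.93. Pold1, the catalytic subunit of polymerase delta, was 1.39, 1.14 and 1.21 CPM in Ctrl and 2.92, 2.89 and 3.25 CPM in Fam210aHKO, a log2 fold change of 1.28 ± 0.27 (adjusted p = 0.00515). Prim2, the large primase subunit, was 1.74, 1.87 and 1.88 CPM in Ctrl and 3.68, 3.58 and 3.68 CPM in Fam210aHKO, a log2 fold change of 0.99 ± 0.24 (adjusted p = 0.0107). Replicates of both genes lay close together and the groups were well apart. Prim1, the catalytic primase subunit, was 2.78, 3.41 and 3.90 CPM in Ctrl and 6.08, 7.15 and 5.22 CPM in Fam210aHKO, a log2 fold change of 0.86 ± 0.23 (adjusted p = 0.0185). The Prim1 call was lost without Ctrl replicate 1 (0.073) or Fam210aHKO replicate 2 (0.081).

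Pola1, the catalytic subunit of polymerase alpha, was 1.74, 2.52 and 4.44 CPM in Ctrl and 5.45, 5.99 and 6.27 CPM in Fam210aHKO, a log2 fold change of 1.01 ± 0.31 (adjusted p = 0.0319). The Ctrl values of Pola1 were spread more widely than those of Fam210aHKO. Its call was lost on log2(FPKM + 0.1) (0.054) and without Ctrl replicate 1 (0.102) or 2 (0.091) or Fam210aHKO replicate 2 (0.070) or 3 (0.064). Pole, the catalytic subunit of polymerase epsilon, was 1.83, 1.79 and 0.739 CPM in Ctrl and 2.20, 3.44 and 3.95 CPM in Fam210aHKO, a log2 fold change of 1.16 ± 0.37 (adjusted p = 0.0406). The Pole call was lost on both FPKM scales (0.097 and 0.091) and without Ctrl replicate 1 (0.060), 2 (0.053) or 3 (0.150) or Fam210aHKO replicate 2 (0.091) or 3 (0.110). The accessory subunits were not called. Pola2 was 5.30, 5.11 and 5.58 CPM in Ctrl and 3.59, 4.54 and 4.04 CPM in Fam210aHKO, without overlap, with a log2 fold change of -0.40 ± 0.21 with TMM and 0.05 with library totals. Pold3 had a log2 fold change of 0.48 ± 0.19 (adjusted p = 0.0795) and Pold2 of 0.20 ± 0.19, and in both the groups did not overlap. Pole2 had 7, 3 and 2 counts in Ctrl and 6, 3 and 15 counts in Fam210aHKO and was not tested.

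Of the sliding clamp and its loader, replication factor C, 1 of 6 genes rose (16.7%, near the 14.0% of all tested genes) and none fell, with a median log2 fold change of 0.26. Pcna was the most abundant of the 50 genes per length, at 17.8 ± 1.35 FPKM in Ctrl and 18.6 ± 0.679 FPKM in Fam210aHKO (SD, n = 3 each). Its CPM values were 29.4, 31.7 and 26.3 in Ctrl and 33.6, 31.9 and 30.3 in Fam210aHKO. The groups overlapped, and the log2 fold change of 0.13 ± 0.14 had an adjusted p of 0.535 with TMM. Rfc4, a small loader subunit, was 3.22, 1.87 and 1.88 CPM in Ctrl and 5.21, 4.61 and 3.77 CPM in Fam210aHKO, a log2 fold change of 0.97 ± 0.28 (adjusted p = 0.0264). The Rfc4 call was lost without Ctrl replicate 2 (0.088) or 3 (0.114) or Fam210aHKO replicate 1 (0.084) or 2 (0.065). Rfc4 shares 12.7% of its exon bases with Eif4a2 on the opposite strand, whose mean went from 282 to 160 CPM. Rfc1, Rfc2, Rfc3 and Rfc5 had log2 fold changes between 0.16 and 0.31, and none was called. With library totals all 6 genes of the clamp and loader were called higher.

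For the joining of the lagging strand, Lig1 rose 4.78-fold. It encodes the ligase that seals Okazaki fragments and lies at chr7:13277283-13311433 on the plus strand. Its values were 0.783, 1.62 and 2.02 CPM in Ctrl and 6.03, 6.95 and 8.55 CPM in Fam210aHKO, from 9, 20 and 30 counts against 126, 101 and 195 counts. The lowest knockout value was well above the highest control value (log2 fold change 2.26 ± 0.32, adjusted p = 0.000449). Of its exon bases 5.79% are shared with Zswim9 on the opposite strand. Fen1, the flap nuclease of the same step, had 0, 3 and 2 counts in Ctrl and 5, 2 and 8 counts in Fam210aHKO and was not tested. Fen1 shares 78.8% of its exon bases with the antisense gene Gm10143.

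Replication protein A coats single-stranded DNA, and none of its 3 genes was called. Rpa1 was 25.3, 21.4 and 27.6 CPM in Ctrl and 25.5, 24.0 and 25.2 CPM in Fam210aHKO, a log2 fold change of 0.01 ± 0.15. Rpa2, whose upstream sequence is shown above, was 5.74, 6.33 and 4.44 CPM in Ctrl and 5.12, 6.19 and 5.09 CPM in Fam210aHKO, a log2 fold change of -0.01 ± 0.22. Rpa3 was 5.22, 5.20 and 3.83 CPM in Ctrl and 5.07, 4.20 and 4.39 CPM in Fam210aHKO, a log2 fold change of -0.06 ± 0.23. The groups overlapped in all 3 genes. With library totals Rpa1 was called higher, and Rpa2 and Rpa3 had log2 fold changes of 0.45 and 0.40 that did not pass.

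Chromatin assembly factor 1 deposits histones on new DNA, and both of its subunit genes in the set rose, against 14.0% of all tested genes. Chaf1a was 0.522, 0.731 and 0.739 CPM in Ctrl and 1.82, 2.20 and 2.54 CPM in Fam210aHKO, a log2 fold change of 1.70 ± 0.34 (adjusted p = 0.00357). It shares 52.5% of its exon bases with Ubxn6 on the opposite strand, which averaged 9.76 CPM in Ctrl and 11.7 CPM in Fam210aHKO. Chaf1b was 1.22, 1.30 and 1.08 CPM in Ctrl and 2.06, 2.75 and 3.11 CPM in Fam210aHKO, a log2 fold change of 1.14 ± 0.30 (adjusted p = 0.0157). Neither gene had overlapping groups, and the Chaf1b call was lost without Ctrl replicate 3 (0.070).

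Of the 5 nucleotide supply genes, 1 rose (20.0%) and 1 fell (20.0%), near the 14.0% and 13.5% of all tested genes. Rrm1, the large subunit of ribonucleotide reductase, which makes deoxyribonucleotides, was 9.83, 17.9 and 12.3 CPM in Ctrl and 20.0, 24.2 and 22.5 CPM in Fam210aHKO, a log2 fold change of 0.74 ± 0.22 (adjusted p = 0.0265). The Rrm1 call was lost on both FPKM scales (0.055 and 0.059) and without Ctrl replicate 1 (0.096) or 3 (0.098) or Fam210aHKO replicate 2 (0.083) or 3 (0.0502). Rrm2, the small subunit made in S phase, was 4.35, 6.09 and 6.39 CPM in Ctrl and 6.27, 7.91 and 8.16 CPM in Fam210aHKO, a log2 fold change of 0.40 ± 0.22 with overlapping groups. Its paralog Rrm2b, the small subunit used outside S phase and not in the set, had a log2 fold change of 0.36 ± 0.25, which did not pass.

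Tk1, which salvages thymidine for DNA synthesis, fell to 36.0% of its control level. It was 17.2, 14.7 and 12.2 CPM in Ctrl and 4.02, 3.92 and 7.81 CPM in Fam210aHKO, without overlap (log2 fold change -1.47 ± 0.28, adjusted p = 0.00269). Tk1 lies at chr11:117815526-117826092 on the minus strand and shares 83 exon bases (1.60%) with the neighbouring gene Afmid on the opposite strand. Afmid, an enzyme of tryptophan breakdown, fell as well, its mean being 42.5 CPM in Ctrl and 8.62 CPM in Fam210aHKO (log2 fold change -2.29 ± 0.23, adjusted p = 5.74e-05). The part of Afmid reads in the Tk1 values was not tested. Thymidylate synthase (Tyms) was 5.39, 6.25 and 5.24 CPM in Ctrl and 8.71, 9.01 and 6.97 CPM in Fam210aHKO, without overlap. Its log2 fold change of 0.55 ± 0.20 had an adjusted p of 0.0662, of 0.043 with the replicate block and of 0.041 without Fam210aHKO replicate 3. Dut, which removes dUTP, was 9.04, 6.17 and 6.99 CPM in Ctrl and 7.22, 3.65 and 4.61 CPM in Fam210aHKO, with a log2 fold change of -0.51 ± 0.27 (adjusted p = 0.193). Dut was called lower without Fam210aHKO replicate 1 (0.040).

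**Figure D3:**
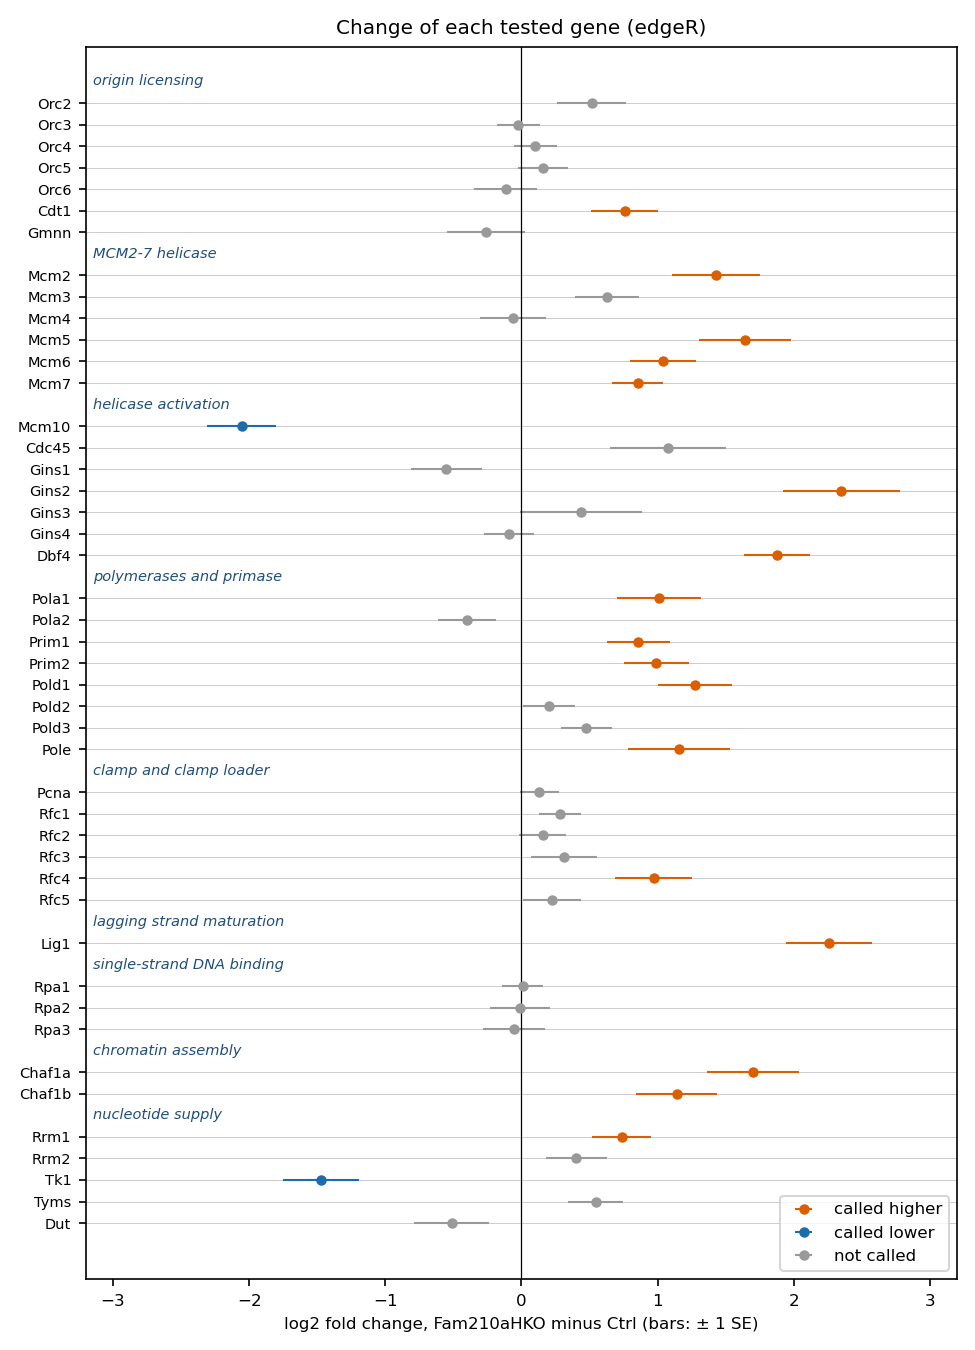
Log2 fold change (Fam210aHKO minus Ctrl, edgeR) of each tested gene, with bars of 1 SE, by role. Orange marks the 17 genes called higher, blue the 2 called lower (Mcm10 and Tk1), and grey the 26 not called.

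Ratios of genes within a library do not depend on the scaling between libraries, and 7 were compared as log2 ratios of FPKM. Cdt1 to its inhibitor Gmnn was -2.69 ± 0.28 in Ctrl and -1.71 ± 0.29 in Fam210aHKO (SD, n = 3 each; exact permutation p = 0.10, adjusted over the 7 ratios 0.35). Mcm10 to Mcm7 was 0.50 ± 0.75 in Ctrl and -2.36 ± 0.14 in Fam210aHKO (exact permutation p = 0.10, adjusted 0.35). In both ratios the groups did not overlap, and 0.10 is the smallest two-sided p that 3 against 3 libraries can give, so no ratio could pass the threshold. Mcm10 had 1.80, 0.778 and 2.03 times the FPKM of Mcm7 in Ctrl and 0.180, 0.190 and 0.217 times in Fam210aHKO. The other 5 ratios overlapped between groups. Rrm2 to Rrm1 differed by -0.36 (exact permutation p = 0.20), Rrm2 to Rrm2b by 0.01, Pcna to Rfc1 by -0.16, Pole to Pold1 by -0.07 and Orc1 to Orc2 by -0.44.

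Low and high genes of the set differed in their changes. Across the 45 genes, which share the same 6 libraries, the log2 fold change was inversely related to the mean CPM (Spearman's rho -0.50, Pearson's r -0.49), given as a description. In the 15 genes with the lowest mean (0.733 to 4.40 CPM), 11 were called higher, 0 lower, and the median log2 fold change was 1.08. The middle 15 genes (4.42 to 6.93 CPM) had 4 higher and 0 lower, with a median of 0.31. The top 15 genes (7.73 to 30.5 CPM) had 2 higher (Mcm7 and Rrm1) and 2 lower (Mcm10 and Tk1), with a median of 0.13. Among all tested genes in these 3 ranges, 14.4%, 17.2% and 13.5% were called higher and 9.0%, 7.75% and 16.1% lower, so the 2 lower genes of the top 15 are near the share of all genes. The median SE of the log2 fold change was 0.31, 0.23 and 0.18 in these 3 classes of the set. The count filter can add to the inverse relation. Gins2 (3, 6 and 5 counts in Ctrl), Chaf1a (6, 9 and 11), Cdc45 (7, 11 and 5) and Gins3 (4, 12 and 8) passed it through Fam210aHKO. Orc1, Cdc6, Cdc7, Pole2 and Fen1, low in both groups, were left out. How much of the relation the filter makes was not tested.

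**Figure D4:**
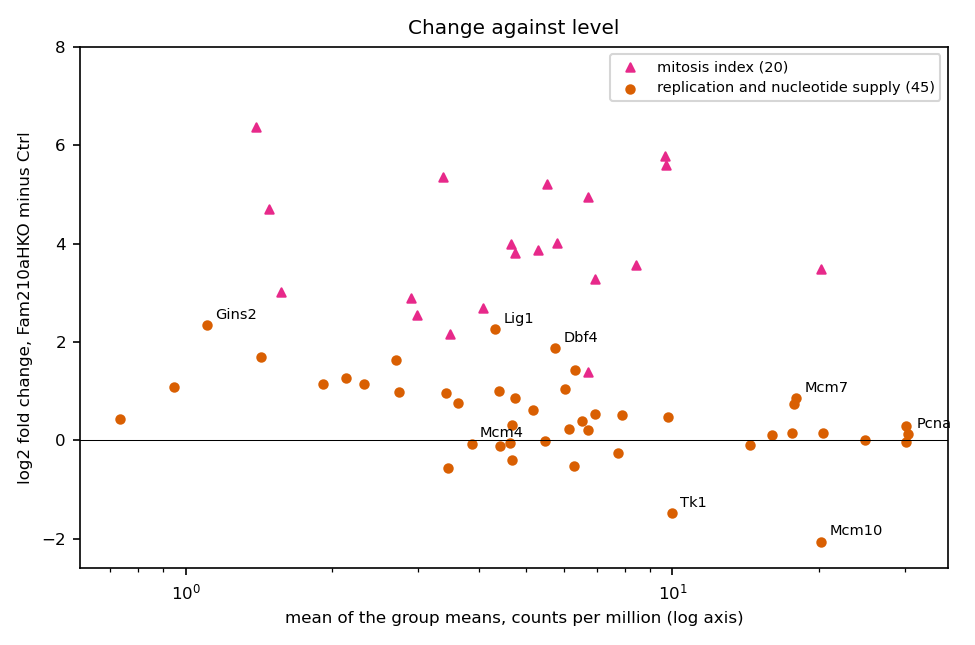
Log2 fold change (Fam210aHKO minus Ctrl) against the mean CPM of the group means (log axis) for the 45 replication and nucleotide supply genes (orange circles) and the 20 mitosis genes (pink triangles). Gins2, Lig1 and Dbf4 lie highest among the orange circles, and Mcm10 and Tk1 lie lowest.

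The 3 Fam210aHKO libraries gave like values for the set. Relative to the Ctrl mean, the median log2 level of the 45 genes was 0.35, 0.53 and 0.47 in Fam210aHKO replicates 1 to 3. For the 17 genes called higher it was 1.12, 1.14 and 1.31, as a description of genes chosen by that call. For 20 genes of mitosis (such as Mki67, Cdk1, Ccnb1, Plk1 and Aurkb) it was 3.38, 3.57 and 4.16.

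Mitosis genes were the set placed beside the replication genes because dividing cells use both. All 20 were called higher, with a median log2 fold change of 3.84, whereas 17 of the 45 replication and nucleotide supply genes were, with a median of 0.44. All of the 20 but Mki67 and Aurka, among them Bub1 (1, 0 and 0 counts in Ctrl) and Plk1 (2, 0 and 4), passed the count filter through Fam210aHKO alone. Such genes could hardly be called anything but higher, so these counts are given as a description. Cdc20, the activator of the anaphase-promoting complex, was 0.435, 0.244 and 0.471 CPM in Ctrl and 17.8, 15.8 and 23.6 CPM in Fam210aHKO (log2 fold change 5.60 ± 0.30, adjusted p = 1.42e-06). Tpx2, a spindle assembly factor, had a log2 fold change of 4.95 and Ube2c, the ubiquitin-conjugating enzyme that works with the same complex, one of 3.99. The lowest value of the 20 was 1.39 (Aurka), and the highest of the 45 replication genes was 2.35 (Gins2). The cumulative plot shows the curve of the mitosis genes to the right of the others except at its top, where Dctd of the nucleotide list and some of all tested genes lie further right. No test between the lists was made.

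**Figure D5:**
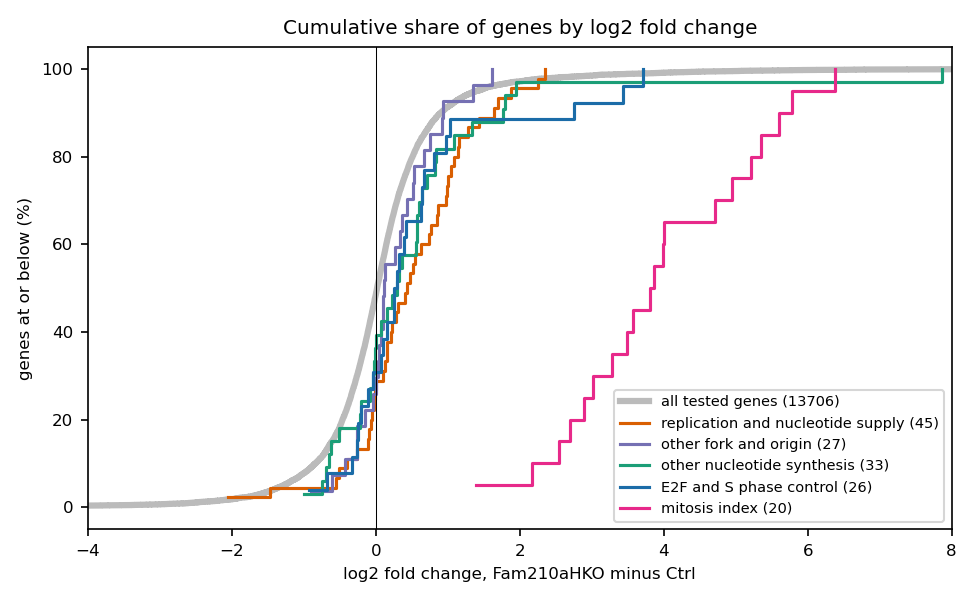
Cumulative share of genes (percent) by log2 fold change (Fam210aHKO minus Ctrl) for all 13706 tested genes (grey), the 45 replication and nucleotide supply genes (orange) and 4 further lists. The orange curve crosses 50% at 0.44, the grey curve at 0.02 and the mitosis curve (pink) at 3.84.

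Further genes of the fork and of origin firing were counted from a list of 32, of which 27 were tested. Of these 5 rose (18.5%, near the 14.0% of all tested genes) and 1 fell (3.70%, against 13.5%), with a median log2 fold change of 0.11. Dtl, a substrate receptor that targets CDT1 for destruction, went from 0.357 ± 0.083 to 1.11 ± 0.258 CPM (SD, n = 3 each; log2 fold change 1.62, adjusted p = 0.0187). Chtf8, a subunit of an alternative clamp loader, rose by 0.51 and Rnaseh2b, a subunit of the nuclease that removes ribonucleotides from DNA, by 0.75 on the log2 scale. Rnaseh2c, another subunit of that nuclease, had 35.4 ± 5.45 CPM in Ctrl and fell to 18.9 ± 2.82 CPM in Fam210aHKO (log2 fold change -0.90, adjusted p = 0.00311). Dtl had 3, 5 and 6 counts in Ctrl and passed the count filter through Fam210aHKO. Dtl lost its call on both FPKM scales (0.278 and 0.113) and without Ctrl replicate 1 (0.0701) or 3 (0.055) or Fam210aHKO replicate 3 (0.0688). Chtf8 lost it without Ctrl replicate 1 (0.0695) or Fam210aHKO replicate 1 (0.0835) or 2 (0.0669), and Rnaseh2b without any library but Ctrl replicate 2 or Fam210aHKO replicate 3 (0.0709 to 0.143) and on both FPKM scales (0.05004 and 0.063). The call of Rnaseh2c was lost with library totals (0.0631). The count of 5 higher was 0 without Ctrl replicate 1, 1 without Ctrl replicate 3 or Fam210aHKO replicate 2, and 3 without Fam210aHKO replicate 1.

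Of 33 further genes of nucleotide synthesis, all tested, 12 rose (36.4%, against 14.0% of all tested genes). In this list 5 fell (15.2%, near the 13.5% of all tested genes), and the median log2 fold change was 0.29. Of the pyrimidine genes, Cad, which starts pyrimidine synthesis, and Umps, Ctps and Ctps2, which act later in it, rose. Dhodh, the step between Cad and Umps, had a log2 fold change of 0.55 ± 0.25 (adjusted p = 0.132) and the kinase Cmpk1 one of -0.0059 ± 0.13, and neither was called. Cad was 7.91, 5.44 and 7.26 CPM in Ctrl and 30.7, 19.5 and 20.2 CPM in Fam210aHKO, a log2 fold change of 1.77 ± 0.23 (adjusted p = 0.000253). Impdh1, an isoform of the rate-limiting enzyme of guanine nucleotide synthesis, had a log2 fold change of 1.94 (adjusted p = 0.000293) and Atic, which completes the purine ring, one of 1.08 (adjusted p = 0.000403). Paics, an earlier enzyme of the same purine pathway, fell by 0.74 and Shmt1, a folate enzyme that feeds thymidylate synthesis, by 0.995 on the log2 scale. The Paics call was lost with library totals (0.162). Dctd, which deaminates dCMP towards thymidylate, had 0 counts in all 3 Ctrl libraries and 101 in Fam210aHKO, at least 22.4-fold higher against a floor of 3 counts over the Ctrl group. Dctd passed the count filter through Fam210aHKO, and setting it at that bound leaves the list's median at 0.29. Umps, Ctps, Ctps2, Dhodh, Cmpk1 and Dctd were named after their values were seen. The number higher was 6 without Ctrl replicate 3, Fam210aHKO replicate 1 or Fam210aHKO replicate 2.

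Of 26 tested genes that control E2F activity and entry into S phase, 5 rose (19.2%) and 1 fell (3.85%). The share higher is near the 14.0% of all tested genes, of which 13.5% were lower. The median log2 fold change of the 26 genes was 0.28. Cyclin A2 (Ccna2), which acts in S phase and G2, was 0.696, 1.14 and 0.538 CPM in Ctrl and 9.28, 8.32 and 13.5 CPM in Fam210aHKO (log2 fold change 3.72 ± 0.32, adjusted p = 2.29e-05). Foxm1, a transcription factor of G2 and mitosis genes, had a log2 fold change of 3.43 (adjusted p = 0.000244). Cyclin E1 (Ccne1), which acts at the entry to S phase, had a log2 fold change of 2.75 (adjusted p = 0.000329). Ccna2 (8, 14 and 8 counts in Ctrl), Foxm1 (1, 5 and 5) and Ccne1 (7, 5 and 6) passed the count filter through Fam210aHKO. Rbl2 (p130), a pocket protein of quiescent cells, fell from 43.9 ± 8.23 to 23.0 ± 5.13 CPM (SD, n = 3 each; log2 fold change -0.93, adjusted p = 0.00551) and lost its call with library totals (0.066).

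Markers of the cell types that liver tissue can hold were read beside these results, and their part in the changes of the replication genes was not tested. As a background, 14.0% of all tested genes were called higher and 13.5% lower. The stellate list below, at 16.7% higher, is near that share. Of 8 hepatocyte markers 0 rose and 4 fell (Ttr, Apoa1, Hnf4a and Asgr1), and their summed level was 148721 to 231387 CPM in Ctrl and 86236 to 109676 CPM in Fam210aHKO. Of 9 macrophage markers 3 rose (Gpnmb, Trem2 and Cd68), with sums of 501 to 630 CPM in Ctrl and 410 to 782 CPM in Fam210aHKO. In the erythroid precursor list 2 of 3 tested markers fell (Alas2 and Klf1), with sums of 50.1 to 71.5 CPM in Ctrl and 7.98 to 17.99 CPM in Fam210aHKO, and Rhag was at 0 counts in all 6 libraries. Cholangiocyte markers had 1 of 3 higher (Epcam; sums of 6.33 to 8.87 against 7.57 to 18.9 CPM) and stellate cell markers 1 of 6 higher (Col1a1; 88.1 to 113 against 96.9 to 186 CPM). Endothelial markers had 2 of 5 lower (Stab2 and Clec4g; 232 to 321 against 150 to 249 CPM). No tested marker of T and NK cells (2 tested; 3.65 to 5.51 against 3.10 to 4.17 CPM), B cells (4 tested; 3.82 to 4.97 against 2.87 to 5.83 CPM) or neutrophils (2 tested; 2.96 to 3.63 against 2.30 to 5.43 CPM) was called with TMM and group alone. With the replicate block the markers called lower were 6 of hepatocytes, 3 of endothelium and 1 of T and NK cells, and 2 cholangiocyte markers were called higher. With library totals 6 macrophage, 3 stellate, 2 cholangiocyte and 1 neutrophil marker were called higher, 3 hepatocyte markers were called lower, and 0 endothelial markers were. Of all 13706 tested genes, the block called 2434 higher and 2462 lower, and library totals called 42.7% higher and 6.33% lower.

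Counting near overlapping genes adds a further limit. Exons of 18 of the 50 genes overlap another annotated gene, in 15 cases one on the opposite strand, and the sources used here do not say whether reads were counted by strand. Where strand was not used, reads of Gins2 and Gse1, Chaf1a and Ubxn6, Orc2 and Nif3l1, Fen1 and Gm10143, or Rfc4 and Eif4a2 cannot be told apart in the shared bases.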

How the data were processed

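Liver RNA of 3 Ctrl and 3 Fam210aHKO samples was sequenced after poly-T selection, per the labels. Raw counts per gene and FPKM values were deposited by the authors in separate tables. Tools named without versions, per the submitters' processing notes, are STAR, featureCounts, Trimmomatic, FastQC and DESeq2, with build mm10. The sources used here do not give the strand setting. The deposited FPKM are per kilobase of gene length, on a library size whose origin these sources do not give.

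Groups came from the sample titles. The 50 genes were matched by symbol, and all 50 identifiers occur in GENCODE release M21, 49 with the same coordinates. Counts were fitted over all genes with edgeR 4.0.16 (R 4.3.3): filterByExpr with a minimum count of 10, TMM factors, a quasi-likelihood F test of the group (two-sided) and Benjamini-Hochberg adjustment over 13706 tested genes, called at 0.05. SE is the size of the log2 fold change over the root of F. The script was tested on simulated data. Libraries held 12.5 to 19.7 M counts; counting intervals and the floor of 3 counts cover counting error only. No 2 replicates agreed within counting error (chi-square per degree of freedom 27.9 to 87.3).

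All 50 genes are named whatever their result. From each other list the text names 3 called genes by smallest p on the side with more calls, up to 2 on the opposite side, and others where it says so. The genes, lists, tests and alternatives were chosen with earlier results of these data known. Deviations from group means correlated between same-numbered libraries (r 0.245, 0.182 and 0.155; other pairs -0.141 to -0.0262). All same-numbered pairs exceed 0.1, so the numbers may pair the samples. These correlations are small, taking off group means pulls the other pairs below 0, and the labels state no pairing. Calls are those of the fit without a block unless stated. A fit with the replicate number as a block is given where it changes a call among the 50 genes, and as counts for the other lists. What the number stands for is not given.

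Alternatives were DESeq2 size factors, upper-quartile scaling, library totals, DESeq2 1.42.0, no filter, a minimum of 1 CPM in 3 libraries, limma-voom (limma 3.58.1), limma on log2(FPKM + 1) and log2(FPKM + 0.1), the block, an adjusted p under 0.01 and leaving out each library. Ratios used FPKM per library and exact permutation tests (scipy 1.17.1). Promoter sequences are RefSeq windows of GRCm38.p6, found for 42 of the 50 genes.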

Additional observations from a re-analysis of the deposited data

How the results depend on the processing

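With library totals the genes called higher numbered 33 in the set, 5846 of all tested genes, 16 of the other fork and origin genes, 23 of the other nucleotide synthesis genes and 15 of the E2F and S phase genes, and 868 of all tested genes were lower. At an adjusted p under 0.01 the numbers higher were 9, 1094, 0, 6 and 4, with 1068 genes lower. Limma on log2(FPKM + 1) and on log2(FPKM + 0.1) gave 2 and 2 other fork genes and 7 and 7 other nucleotide genes. The replicate block follows a possible pairing of the samples. With it 20 of the 45 genes were higher and 2 lower, and no other call in the set changed. Of all tested genes 2434 were higher and 2462 lower. The block gave 6 other fork genes, 12 other nucleotide genes, 6 E2F genes and 20 mitosis genes higher, and 6 other nucleotide and 2 E2F genes lower in place of 5 and 1.

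Leaving out 1 library gave 11 to 16 genes of the set higher and 2 to 3 lower, 1339 to 1897 of all tested genes higher and 1334 to 1834 lower, 0 to 4 other fork genes, 6 to 11 other nucleotide genes, 4 to 6 E2F genes and 20 mitosis genes. Smaller groups have fewer residual degrees of freedom. A group left with 2 libraries shares its spread estimate with the other.

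Direction turned in genes not called with TMM. With library totals the log2 fold change was 0.44 for Orc3, 0.34 for Orc6, 0.21 for Gmnn, 0.40 for Mcm4, 0.37 for Gins4, 0.051 for Pola2, 0.45 for Rpa2 and 0.40 for Rpa3. Without a filter Orc3 was at 0.011 and Rpa2 at 0.026. Rpa1 was at -0.0039 with DESeq2 size factors, -0.0018 with the filter of CPM above 1, -0.0042 with DESeq2, -0.044 on log2(FPKM + 1) and -0.049 on log2(FPKM + 0.1). Rpa2 was at 0.0031 with upper-quartile scaling and 0.00055 with the replicate block. Leaving out 1 library gave -0.14 to 0.089 for Orc3, -0.0035 to 0.18 for Orc4, -0.25 to 0.023 for Orc6, -0.53 to 0.020 for Gmnn, -0.19 to 0.071 for Mcm4, -0.23 to 0.0063 for Gins4, -0.10 to 0.075 for Rpa1, -0.17 to 0.089 for Rpa2 and -0.21 to 0.0054 for Rpa3. The same step gave -0.13 to 0.16 for the ratio of Rrm2 to Rrm2b, -0.95 to 0.25 for Orc1 to Orc2 and -0.48 to 0.20 for Pole to Pold1. The cause of these turns was not tested. The looser E2F cores raised the share of promoters with a match from 35.7% to 81.0%. Depth limits Orc1, Cdc6, Cdc7, Pole2 and Fen1, which had at most 15 counts in a library.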
